A study of Mus musculus with 20 samples.

Results

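The 40 genes described here encode the hypoxia response and glycolysis, and they were followed through 20 mouse tumors that received vehicle, cisplatin, KW6002 or both drugs. They were chosen by mouse gene symbol, and each symbol was matched to its Ensembl gene in a table of 35226 genes. All 40 were in that table, and all 40 passed the filter on low counts that left 16665 genes for testing. The members were 2 alpha subunits of hypoxia-inducible factor (HIF), 14 glycolytic enzymes, 6 genes of glucose and lactate transport or flux control, and 18 other HIF targets. The enzymes together with the transport and flux genes are called the 20 glycolysis genes below.

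HIF is a transcription factor made of an oxygen-regulated alpha subunit and a constitutive beta subunit. With oxygen, prolyl hydroxylases mark the alpha subunit for destruction by the VHL ubiquitin ligase, and without oxygen the subunit accumulates, so that much of its regulation lies in protein stability and not in its own mRNA. Accumulated HIF binds short DNA elements and raises genes for glucose uptake, glycolysis, lactate export, angiogenesis, pH control, mitophagy and collagen hydroxylation, many of which are also under growth factor and stress control. Solid tumors often contain poorly perfused regions where these genes are high.

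The tumors grew from LLC1 cells, a Lewis lung carcinoma line of C57BL6 origin, injected under the skin of male C57BL6/J mice aged 8 to 10 weeks. Mice were randomized when tumor volume reached 100 mm3, and each of the 4 groups contributed 5 tumors with 1 library per tumor. The vehicle group received the carrier solutions, and the KW6002 group received istradefylline, an adenosine receptor antagonist. The cisplatin group received cisplatin, a platinum drug that crosslinks DNA, and the cotreatment group (labelled "cisplatine+KW") received cisplatin with KW6002. All tumors derived from the same cell line, and whole tumors were sequenced, so host vessel, immune and connective tissue cells contributed RNA. For such bulk samples, fewer cells of a type and less RNA per cell cannot be told apart.

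Total counts ranged from 28.4 to 41 M reads per tumor. The carcinoma markers Krt8 and Krt18 were measured at 95.2 to 215 CPM and 224 to 378 CPM (counts per M reads of the TMM-scaled library), while Epcam reached at most 0.144 CPM and the alveolar marker Sftpc at most 0.0307 CPM. The mesenchymal gene Vim was high in every library, at 2825 to 4659 CPM. The libraries carried code numbers in 2 runs, an earlier one with 1 vehicle, 2 KW6002, 2 cisplatin and 3 cotreatment tumors and a later one with 4, 3, 3 and 2. The labels do not say what the codes stand for. On the second principal component of all tested genes, which carried 15.5% of the variance, cisplatin replicates 4 and 5 scored 48.9 and 40.1, and the other 18 tumors scored between -33.1 and 24.6.

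In vehicle tumors the most abundant members per length were glycolytic enzymes. On the RPKM scale (CPM per kilobase of exon), Ldha, which converts pyruvate to lactate, was at 432 ± 14.3 and Pkm, which forms pyruvate, at 373 ± 21.4 (SD, n = 5). Tpi1 and Aldoa, which interconvert and produce the triose phosphates, were at 293 ± 8.63 and 285 ± 19.9 RPKM, and these levels differed by less than their spread. The prolyl hydroxylase Egln3 and the glucose transporter Slc2a1 had levels of 119 ± 5.29 and 92.8 ± 16.6 RPKM. At the low end were Car12, a carbonic anhydrase of the cell surface, at 0.64 ± 0.118 RPKM, Aldoc, the brain-type aldolase, at 2.18 ± 0.426 RPKM, and Epas1, which encodes HIF-2 alpha, at 2.74 ± 0.382 RPKM.

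Gapdh, Pgk1 and Pgam1, the enzymes between the triose phosphates and enolase, were listed at 8.67 ± 0.942, 18.1 ± 1.06 and 9.94 ± 1.14 RPKM, far under their neighbors in the pathway. Only reads that aligned to 1 place were counted. Of the 50-base windows along the main transcript of Gapdh, 90.4% also occurred in the transcript of another gene, and 215 annotated pseudogenes shared at least 1 window with it, beside 5 for Pgk1 and 4 for Pgam1. The share was 72.2% for Eno1, 68% for Pgk1, 62.4% for Bnip3 and 41.5% for Pgam1, and 13 of the 40 members had more than 10%. The levels of these 13 genes are uncertain, whereas comparisons between tumors apply to the part of each transcript that could be counted.

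Neither alpha subunit was called in the fit of all 20 tumors with the 4 group means alone. Hif1a was measured at 284, 330, 303, 360 and 289 CPM in vehicle replicates 1 to 5 and at 316, 271, 266, 281 and 342 CPM with KW6002. It was at 265, 283, 245, 226 and 250 CPM with cisplatin, all below the lowest vehicle tumor, and at 326, 280, 287, 250 and 263 CPM with cotreatment. The log2 fold change of Hif1a with cisplatin was -0.30 ± 0.09 (SE; edgeR adjusted P = 0.0188), which passed the P threshold of 0.05 but not the fold limit of 0.32 on the log2 scale that a call required. With the library code run as a term in the fit, and with later codes only, the cisplatin difference of Hif1a was called (log2 fold change -0.32 and -0.39, edgeR adjusted P = 0.0132 and 0.00908). With separate code terms for tumors with and without cisplatin, the Hif1a difference was -0.12 (edgeR adjusted P = 0.55). Without cisplatin replicate 4 it was -0.25 (edgeR adjusted P = 0.058). With cotreatment the log2 fold change was -0.15 ± 0.09 (edgeR adjusted P = 0.168).

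Epas1 was expressed at a much lower level, at 14.9, 16.1, 17.7, 11.9 and 15.9 CPM in vehicle tumors and 18.8, 12.4, 12.2, 14.6 and 12.8 CPM in KW6002 tumors. Its values were 8.93, 8.81, 11, 18.9 and 13.4 CPM with cisplatin and 11.4, 10.8, 10.5, 10.1 and 13.7 CPM with cotreatment. The groups overlapped, and no comparison of Epas1 passed in the fit of all 20 tumors, the smallest adjusted P being 0.0581 for cotreatment against vehicle (edgeR; log2 fold change -0.44 ± 0.18). Whether Epas1 passed depended on the fit. Without cisplatin replicate 4, the tumor with the highest Epas1 of its group, Epas1 was called with cisplatin and with cotreatment (log2 fold change -0.53 and -0.43, edgeR adjusted P = 0.0257 and 0.0213). The cotreatment difference was also called when only those groups were fitted (-0.43, edgeR adjusted P = 0.0082) and with separate code terms for tumors with and without cisplatin (-0.71, edgeR adjusted P = 0.0204). Other fits called Epas1 with neither treatment. With later codes only it was at -0.08 with cisplatin and -0.36 with cotreatment (edgeR adjusted P = 0.789 and 0.284). With the code run as a term these values were -0.31 and -0.38 (edgeR adjusted P = 0.229 and 0.117). Without cisplatin replicate 5 they were -0.36 and -0.43 (edgeR adjusted P = 0.232 and 0.071). Epas1 is also a gene of endothelial cells. The summed level of 8 endothelial markers ranged from 188 to 262 CPM in vehicle tumors, 108 to 128 CPM with cisplatin and 107 to 153 CPM with cotreatment, and their part in the Epas1 values was not tested.

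KW6002 given alone was compared with vehicle to ask whether the drug by itself altered these genes. No member was called, and 0 members had an unadjusted P under 0.05 (edgeR; DESeq2 also called 0). The background was likewise 0% of all genes called, with 339 genes at an unadjusted P under 0.05. The 40 log2 fold changes lay between -0.18 for Hilpda, a lipid droplet protein, and 0.09 for Car12 and Pfkfb3. Their median was -0.06, with 33 members below 0 and 7 above, against a median of 0 over all genes.

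Cisplatin was compared with vehicle to ask what the cytotoxic drug did to the program. The aldolase Aldoc fell, and it was the 1 member called. This was 1 of 40 lowered and 0 of 40 raised, beside 4.57% of all genes lowered and 6.01% raised. Aldoc was measured at 9.19, 6.82, 7.67, 5.62 and 6.23 CPM in vehicle tumors and 4.57, 2.79, 3.15, 4.26 and 5.57 CPM in cisplatin tumors, so that every cisplatin tumor was below every vehicle tumor. The log2 fold change of Aldoc was -0.80 ± 0.19 (edgeR adjusted P = 0.00708), a 1.75-fold lower level. With later codes only, Aldoc had a log2 fold change of -0.59 (edgeR adjusted P = 0.0615) and was not called, and the 2 members called were Hif1a, lowered, and Gapdh, raised (log2 fold change 0.57, edgeR adjusted P = 0.0378), beside 15.9% of all genes called there. Pfkfb4, a bifunctional enzyme that sets fructose 2,6-bisphosphate, had a log2 fold change of -0.29 ± 0.08 (edgeR adjusted P = 0.0248) and missed only the fold limit. P4ha1 was called lower with a replicate block (-0.54, edgeR adjusted P = 0.0255) and by DESeq2 (-0.47, DESeq2 adjusted P = 0.0441). It was not called with later codes only, with the code run as a term or with separate code terms (-0.29, -0.45 and -0.77, edgeR adjusted P = 0.35, 0.0973 and 0.0804). Slc16a3 was called lower with separate code terms (-1.11, edgeR adjusted P = 0.0354), and with later codes only it was at 0.24 (edgeR adjusted P = 0.56).

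Many of the remaining members showed a wide spread between cisplatin tumors. Vegfa, the angiogenic growth factor, was at 124, 136, 148, 117 and 110 CPM in vehicle replicates 1 to 5 and at 93.8, 83.5, 91.6, 171 and 293 CPM in cisplatin replicates 1 to 5. Slc2a1, the main inducible glucose transporter, was at 403, 296, 371, 266 and 290 CPM with vehicle and at 175, 122, 137, 284 and 659 CPM with cisplatin. Car9, a carbonic anhydrase often used as a hypoxia marker, was at 19.2, 10.4, 16.3, 11 and 13.1 CPM with vehicle and at 5.48, 6.42, 7.8, 21.5 and 37.4 CPM with cisplatin. In all 3 genes, cisplatin replicates 1 to 3 were below every vehicle tumor and replicate 5 was above every vehicle tumor. The mean differences were small against this spread, with log2 fold changes of 0.21 ± 0.29 for Vegfa, -0.24 ± 0.35 for Slc2a1 and 0.17 ± 0.46 for Car9 (edgeR adjusted P = 0.666, 0.69 and 0.837). Their directions depended on the tumors and codes. Without cisplatin replicate 5 the log2 fold change was -0.20 for Vegfa and -0.44 for Car9 (edgeR adjusted P = 0.557 and 0.494), and with later codes only it was 0.55 for Vegfa, 0.25 for Slc2a1 and 0.82 for Car9 (edgeR adjusted P = 0.251, 0.714 and 0.22). With separate code terms for tumors with and without cisplatin, Car9 had a log2 fold change of -1.20 (edgeR adjusted P = 0.144).

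**Figure D1:**
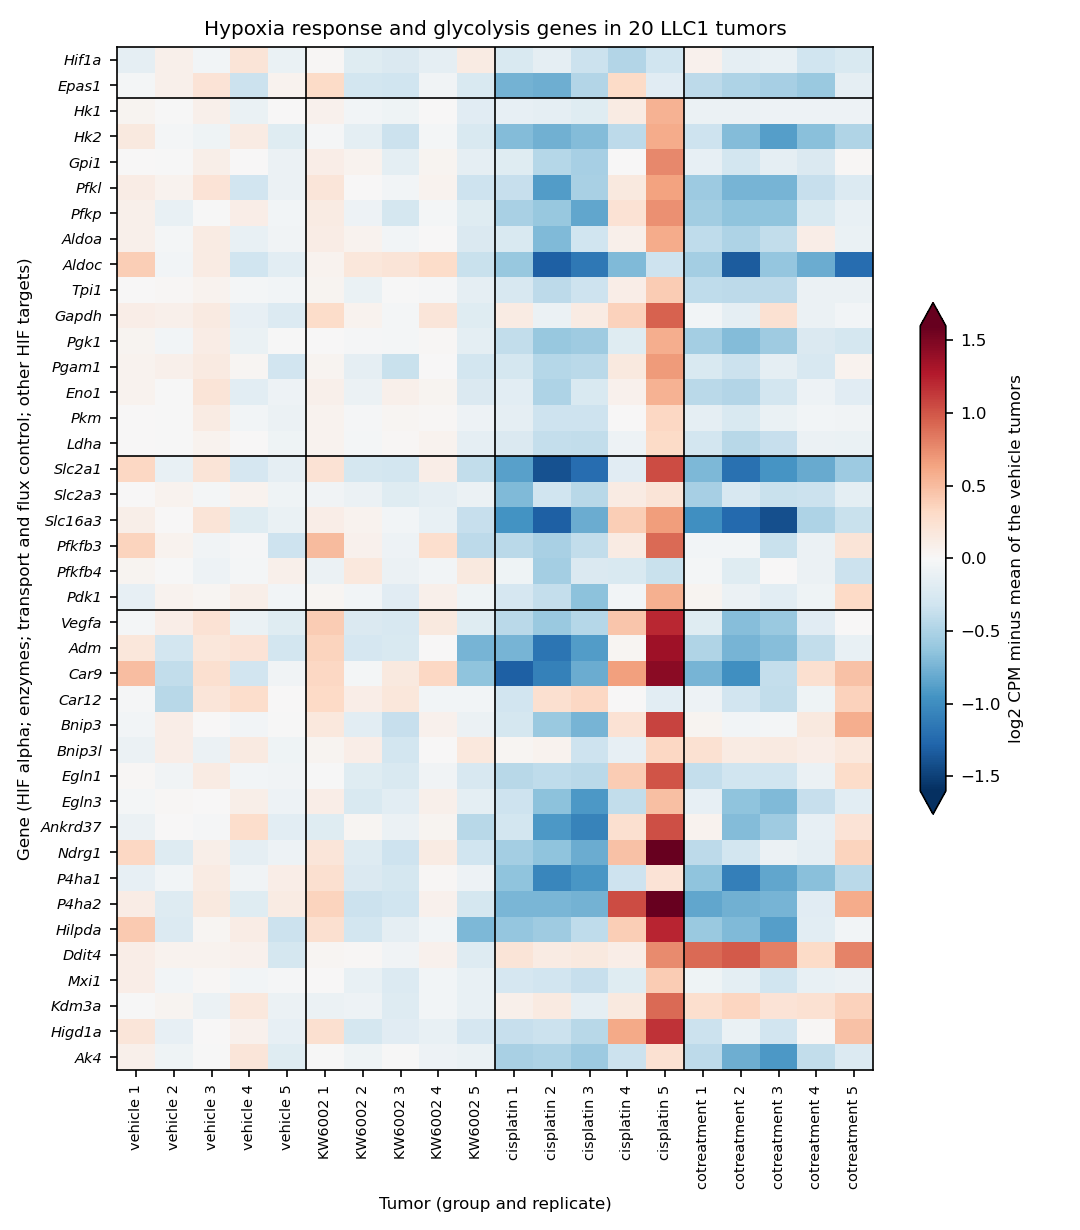
Level of each of the 40 genes (rows, grouped by role) in each of the 20 tumors (columns), as log2 CPM minus the mean of the 5 vehicle tumors; red is higher and blue is lower. Cisplatin replicate 5 held the highest value of all 20 tumors for 33 of the 40 genes, and cisplatin replicates 1 to 3 were mostly below vehicle.

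Bnip3, a mitophagy receptor, had 57.5, 63.5, 59.5, 57 and 58.9 CPM in vehicle tumors and 48.9, 39.4, 35.4, 69.5 and 125 CPM in cisplatin tumors. Ldha had 1442, 1416, 1490, 1435 and 1359 CPM with vehicle and 1220, 1100, 1081, 1348 and 1769 CPM with cisplatin. In these genes too, replicates 1 to 3 were below every vehicle tumor and replicate 5 above. The highest cisplatin tumor exceeded the lowest 6.82-fold for Car9 and 5.74-fold for Adm, a vasodilator peptide. Ndrg1, a stress-responsive gene, and P4ha2, a collagen prolyl hydroxylase, also ranged widely with cisplatin, from 204 to 1122 CPM and from 37.6 to 210 CPM, whereas their vehicle tumors ranged from 306 to 446 CPM and from 55.1 to 70.7 CPM.

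Because 1 tumor carried so many of the highest values, the comparison was repeated without cisplatin replicate 5, an exclusion listed among the alternatives as leaving out each tumor in turn. Leaving out the tumor with the highest values lowers the cisplatin mean of these genes by construction, so the count is a description. Without cisplatin replicate 5, 8 members were lowered and 0 raised by cisplatin, beside 4.08% of all genes lowered in that fit. They were the enzymes Hk2, Aldoc and Pgk1, the transporter Slc2a1, the pyruvate dehydrogenase kinase Pdk1, the prolyl hydroxylase Egln3, the collagen hydroxylase P4ha1 and the mitochondrial adenylate kinase Ak4. For Slc2a1 the log2 fold change moved from -0.24 to -0.85 (edgeR adjusted P = 0.0163) and for P4ha1 from -0.48 to -0.71 (edgeR adjusted P = 0.00316). Leaving out cisplatin replicate 4 gave 2 called members, Aldoc and Epas1, and leaving out cisplatin replicate 1, 2 or 3 gave 2, 3 and 1. Leaving out vehicle replicate 1 or 5 gave 2. These 6 fits called 8.47% to 12.2% of all genes, so 1 to 3 of 40 members is a share below the background.

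Cotreatment was compared with vehicle to ask what the drug pair did to these genes. With both drugs 7 members fell and 1 rose. Those that fell were the enzymes Aldoc, Hk2 and Pgk1, the glucose transporter Slc2a3, the lactate exporter Slc16a3, P4ha1 and Ak4, and the gene that rose was Ddit4, an inhibitor of mTORC1 signaling that also responds to DNA damage. This was 7 of 40 members lowered and 1 of 40 raised, beside 10.4% of all genes lowered and 13.1% raised. Among the 20 glycolysis genes, 5 were lowered and 0 raised, and among the 18 other HIF targets 2 were lowered and 1 raised. The median log2 fold change was -0.27 over the glycolysis genes and -0.17 over the other targets, against -0.02 over all genes tested. With later codes only the medians were -0.09 and 0.13, and with code terms fitted apart for tumors given and not given cisplatin they were -0.48 and -0.50, so the direction over the other targets depended on the codes.

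Aldoc was at 7.28, 7.93, 8.07, 8.58 and 5.46 CPM with KW6002. With cotreatment it was at 4.77, 2.76, 4.54, 3.99 and 2.96 CPM, each below the lowest tumor of both groups without cisplatin. Its log2 fold change was -0.90 ± 0.19 (edgeR adjusted P = 0.00105), a 1.87-fold lower level. Hk2, the inducible hexokinase that starts glycolysis, ranged from 123 to 181 CPM with cotreatment and from 200 to 255 CPM with vehicle, and its log2 fold change was -0.61 ± 0.20 (edgeR adjusted P = 0.0272). Neither gene overlapped between the groups. The Hk2 call was lost with the code run as a term (-0.56, edgeR adjusted P = 0.0526).

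Pgk1, phosphoglycerate kinase, was at 41.7, 39.3, 43.9, 37.6 and 40.3 CPM in vehicle tumors and at 40.6, 39.9, 39.7, 40.9 and 36.3 CPM in KW6002 tumors. It was at 30.9, 26.5, 27.3, 35.2 and 60.4 CPM with cisplatin and at 27.6, 25.1, 27.2, 34.5 and 33.3 CPM with cotreatment. The cotreated tumors were all below the lowest vehicle tumor, with a log2 fold change of -0.46 ± 0.16 (edgeR adjusted P = 0.0367). This value rests on reads from the part of Pgk1 that no other transcript shares.

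Ldha was at 1156, 1050, 1108, 1344 and 1326 CPM with cotreatment and at 1487, 1395, 1447, 1476 and 1291 CPM with KW6002. All 5 cotreated tumors were below the vehicle minimum of 1359 CPM, yet the difference did not pass, with a log2 fold change of -0.26 ± 0.10 (edgeR adjusted P = 0.058). With separate code terms Ldha was called (-0.39, edgeR adjusted P = 0.0184), and with later codes only it was not (-0.07, edgeR adjusted P = 0.768). Among the other enzymes, Pfkl and Pfkp, subunits of phosphofructokinase, had log2 fold changes of -0.53 ± 0.21 and -0.43 ± 0.22 (edgeR adjusted P = 0.0646 and 0.145). All 14 enzymes had a log2 fold change below 0 with cotreatment, from -0.90 for Aldoc to -0.02 for Gapdh, and 3 passed the test. Without cisplatin replicate 5, which is in neither group of this comparison but in the common fit, Pfkl and Pfkp were called as well (log2 fold change -0.52 and -0.42, edgeR adjusted P = 0.0187 and 0.0432), and 10 members were lowered and 1 raised, beside 23.5% of all genes called in that fit. With separate code terms Pfkl, Pfkp, Aldoa, Tpi1 and Eno1 were called (-0.91, -0.81, -0.58, -0.45 and -0.48). Their edgeR adjusted P was 0.00993, 0.0276, 0.0181, 0.00786 and 0.0351. With later codes only none of these passed, and their log2 fold changes were -0.26, -0.15, 0.03, -0.07 and -0.11.

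Among the glycolysis genes, transporters had the largest differences after Aldoc. Slc16a3, which exports lactate and protons, ranged from 44.1 to 57.8 CPM with vehicle and from 18.9 to 39.2 CPM with cotreatment, with a log2 fold change of -0.85 ± 0.32 (edgeR adjusted P = 0.0462). Slc2a1 was at 195, 141, 167, 184 and 215 CPM with cotreatment and at 377, 265, 261, 346 and 243 CPM with KW6002. Its cotreated tumors did not overlap with either group lacking cisplatin, and its log2 fold change against vehicle of -0.85 ± 0.36 did not pass (edgeR adjusted P = 0.0738) in the fit of all 20 tumors, in which the 4 groups share 1 estimate of the spread. When only the vehicle and cotreatment tumors were fitted, 13 members were called, beside 24.4% of all genes, with Slc2a1 among them (log2 fold change -0.84, edgeR adjusted P = 0.00075). Slc2a3, a high-affinity glucose transporter that is also abundant in neutrophils, had a log2 fold change of -0.33 ± 0.12 (edgeR adjusted P = 0.0457). The 6 neutrophil markers tested had 4 lowered and 0 raised with cotreatment, and the sum over the 7 markers of the list was 47.7 to 123 CPM with vehicle and 16.4 to 35.5 CPM with cotreatment, and its part in the Slc2a3 value was not tested. Of the 20 fits that each left out 1 tumor, 18 lost the Slc2a3 call, 13 that of Slc16a3, 8 that of Pgk1 and 5 that of Hk2, and 0 lost those of Aldoc, P4ha1, Ak4 and Ddit4.

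Pdk1, Pfkfb3 and Pfkfb4, which steer pyruvate and fructose 2,6-bisphosphate, had log2 fold changes of 0.01 ± 0.16, -0.08 ± 0.24 and -0.13 ± 0.08 and did not pass (edgeR adjusted P = 0.957, 0.834 and 0.253). The flux control genes therefore gave no call with cotreatment, while both called genes of this subgroup were transporters.

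**Figure D2:**
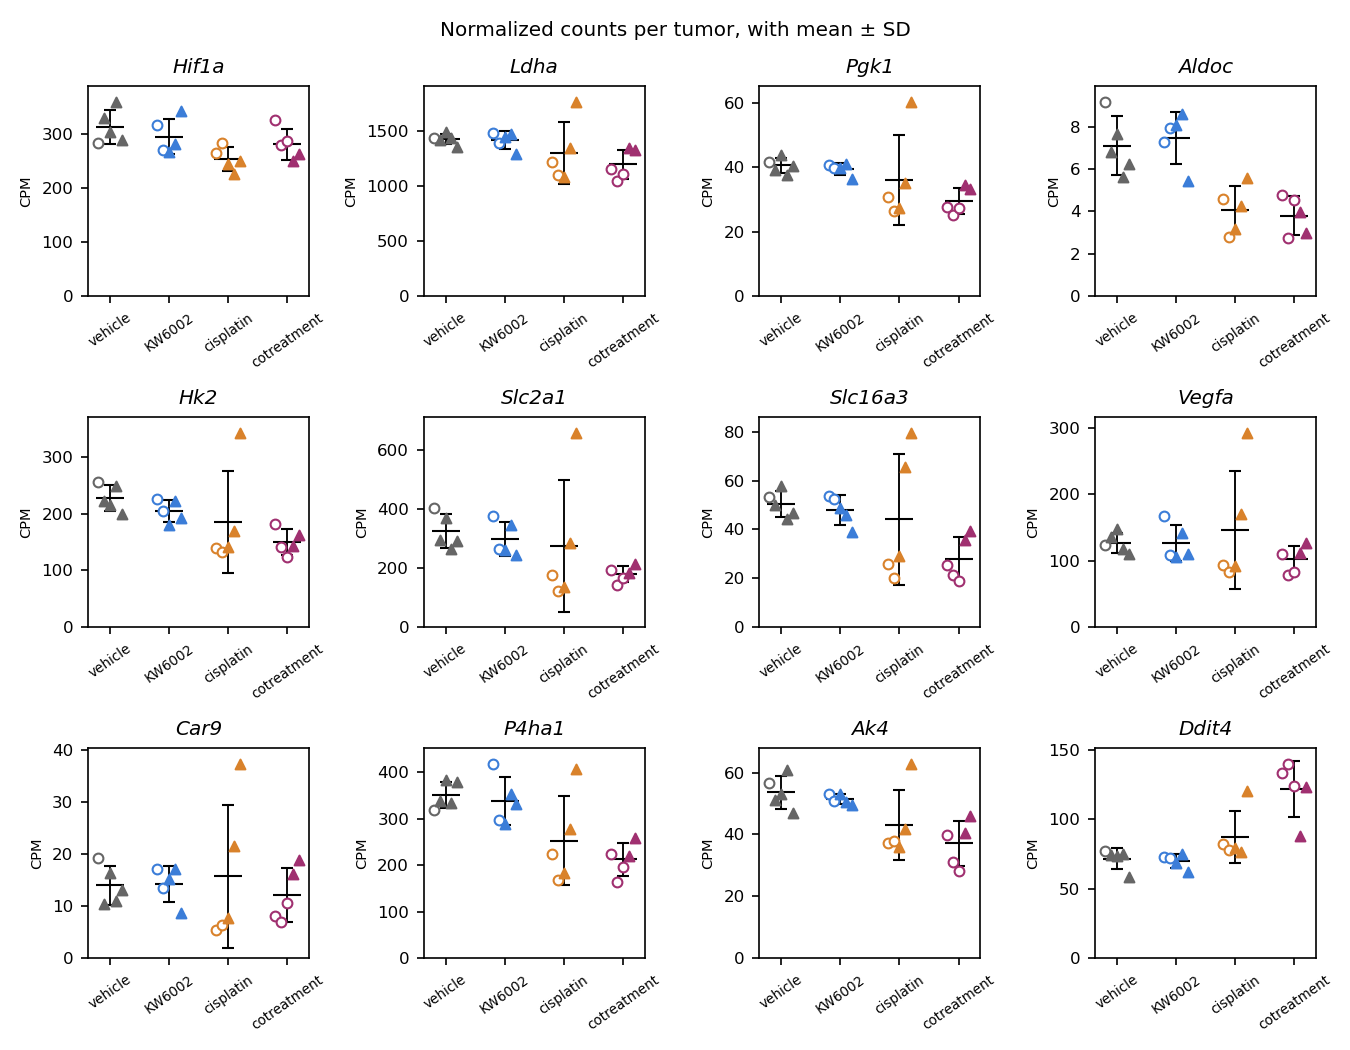
CPM of 12 genes in each tumor (vertical axes start at 0), with open circles for earlier library codes, filled triangles for later ones, and horizontal bars with whiskers for the mean ± SD of 5 tumors. Ddit4 was higher in all 5 cotreated tumors than in any vehicle tumor, and Aldoc, P4ha1 and Ak4 were lower.

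Ddit4 rose. It was measured at 76.9, 73.9, 73.8, 74.6 and 58.5 CPM with vehicle, at 72.7, 72, 68.3, 74.7 and 61.7 CPM with KW6002, at 81.8, 77.9, 79, 76.4 and 120 CPM with cisplatin, and at 133, 140, 124, 88 and 123 CPM with cotreatment. Every cotreated tumor was above every tumor of the groups without cisplatin. The log2 fold change of Ddit4 against vehicle was 0.77 ± 0.12 with cotreatment (edgeR adjusted P = 0.0001), a 1.70-fold higher level, and 0.28 ± 0.12 with cisplatin (edgeR adjusted P = 0.128).

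P4ha1, the catalytic subunit of collagen prolyl 4-hydroxylase, fell. It was at 320, 339, 383, 335 and 379 CPM with vehicle, 419, 298, 288, 354 and 332 CPM with KW6002, 225, 169, 184, 279 and 407 CPM with cisplatin, and 225, 164, 197, 220 and 259 CPM with cotreatment. Of the cisplatin tumors 4, and of the cotreated tumors all 5, were below the lowest vehicle tumor. The log2 fold change of P4ha1 with cotreatment was -0.72 ± 0.19 (edgeR adjusted P = 0.006), a 1.65-fold lower level.

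Ak4 fell as well. Its values were 56.5, 51, 53.1, 60.9 and 46.8 CPM with vehicle, 53, 50.9, 53.1, 50.6 and 49.5 CPM with KW6002, 37.3, 37.8, 35.8, 41.9 and 62.9 CPM with cisplatin, and 39.8, 31.2, 28.3, 40.6 and 46 CPM with cotreatment. The highest cotreated tumor, at 46 CPM, lay just under the lowest vehicle tumor. The log2 fold change of Ak4 was -0.53 ± 0.14 (edgeR adjusted P = 0.00561).

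The remaining 15 of the 18 other HIF targets did not pass with cotreatment in the fit of all 20 tumors. Adm, Hilpda and Egln3 had log2 fold changes of -0.49 ± 0.38, -0.47 ± 0.32 and -0.39 ± 0.19 (edgeR adjusted P = 0.342, 0.269 and 0.119), and with only the vehicle and cotreatment tumors fitted Adm and Egln3 were called (-0.48 and -0.38, edgeR adjusted P = 0.0258 and 0.0111). Egln3 was also called without cisplatin replicate 5 (-0.38, edgeR adjusted P = 0.0157). Hilpda was called with separate code terms (-1.14, edgeR adjusted P = 0.0163), and with later codes only it was at 0.00 (edgeR adjusted P = 0.997). Vegfa was at 110, 78.8, 83, 111 and 127 CPM with cotreatment and at 168, 108, 106, 141 and 110 CPM with KW6002, and its log2 fold change against vehicle was -0.32 ± 0.29 (edgeR adjusted P = 0.424). Car9 was at 8.12, 6.89, 10.5, 16.2 and 18.8 CPM with cotreatment and at 17.1, 13.4, 15.2, 17.1 and 8.75 CPM with KW6002, and its log2 fold change was -0.21 ± 0.46 (edgeR adjusted P = 0.758). Both genes overlapped widely between the groups. With later codes only the log2 fold change against vehicle was -0.08 for Vegfa and 0.48 for Car9 (edgeR adjusted P = 0.916 and 0.577). With separate code terms it was -0.70 for Vegfa and -1.14 for Car9 (edgeR adjusted P = 0.141 and 0.0605). Bnip3 was at 61, 57.8, 58.2, 65.9 and 88.8 CPM with cotreatment and at 66.5, 52.6, 45.9, 62.1 and 55.6 CPM with KW6002, and its log2 fold change was 0.16 ± 0.26 (edgeR adjusted P = 0.662). Egln1, the main oxygen-sensing prolyl hydroxylase, Ndrg1 and Higd1a, a mitochondrial survival factor, had log2 fold changes of -0.15, -0.11 and -0.03 and did not pass either (edgeR adjusted P = 0.655, 0.854 and 0.944). With later codes only, Bnip3, Egln1, Ndrg1 and Higd1a had log2 fold changes of 0.39, 0.13, 0.23 and 0.33. With separate code terms they had -0.13, -0.47, -0.66 and -0.51, and none passed in either fit.

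By a count without a model, 13 members were lower in every cotreated tumor than in every vehicle tumor and 2 were higher. Over all tested genes 12.4% were lower and 12.2% higher in this sense. Of the 13, 9 were glycolysis genes (Hk2, Pfkp, Aldoc, Tpi1, Pgk1, Ldha, Slc2a1, Slc2a3 and Slc16a3) and 4 were other HIF targets (Egln3, P4ha1, Mxi1 and Ak4). The 2 that were higher were Ddit4 and the histone demethylase Kdm3a.

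Kdm3a was at 207, 214, 196, 235 and 195 CPM with vehicle, 195, 198, 181, 201 and 192 CPM with KW6002, 220, 230, 188, 232 and 391 CPM with cisplatin, and 253, 265, 243, 246 and 271 CPM with cotreatment. Every cotreated tumor was above both groups without cisplatin, and the log2 fold change against vehicle was 0.29 ± 0.13 (edgeR adjusted P = 0.0883).

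**Figure D3:**
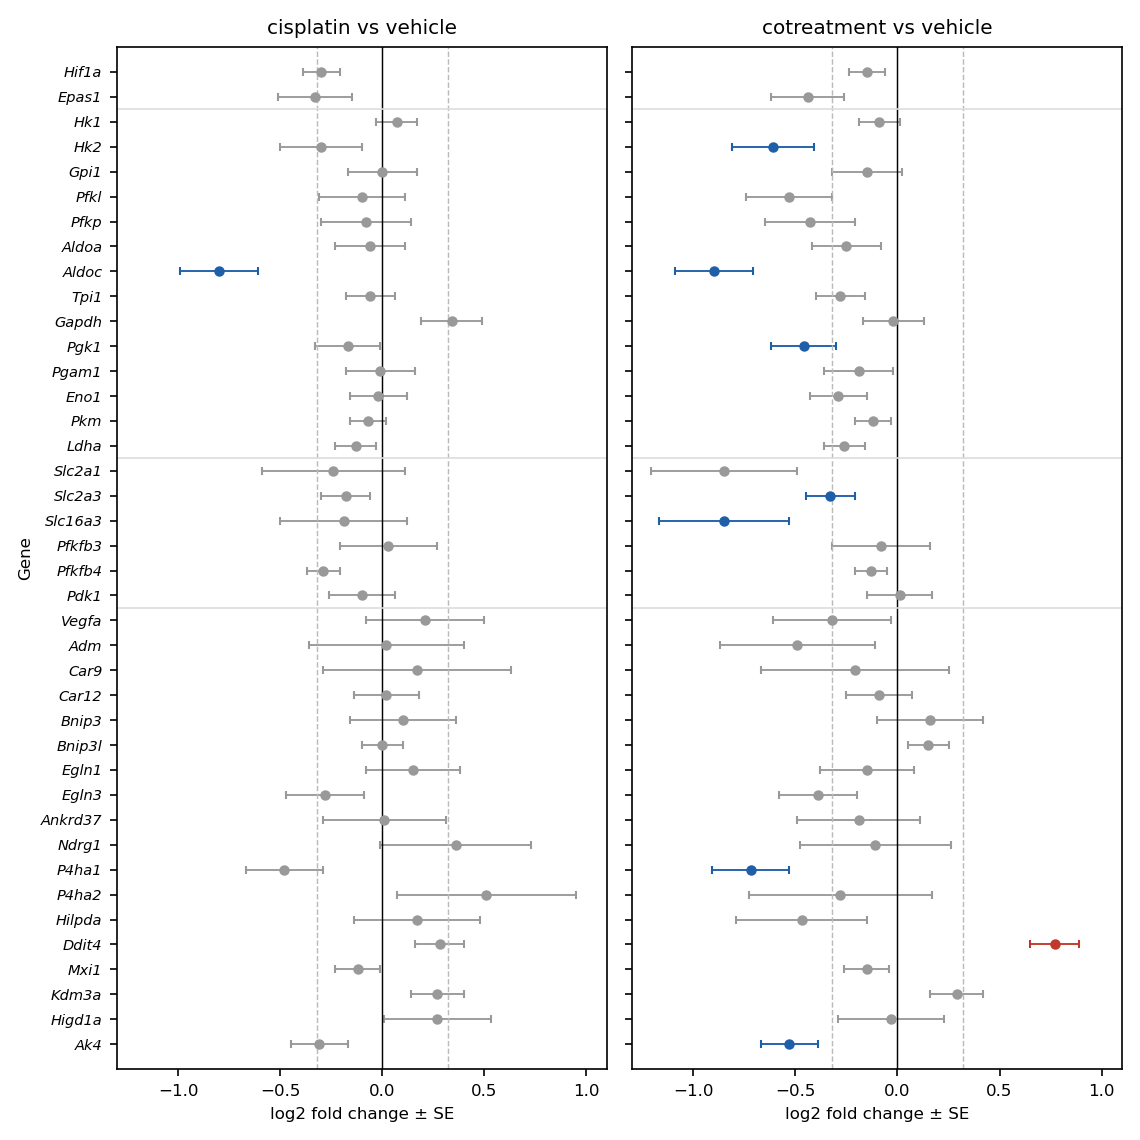
Log2 fold change ± SE of each gene with cisplatin (left) and with cotreatment (right) against the same vehicle tumors, from the edgeR fit of all 20 tumors. Blue marks genes called lower, red genes called higher and gray genes not called, and dashed lines mark the fold limit of 0.32; the 1 call on the left is Aldoc, and the 8 on the right are 7 lower genes and Ddit4.

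The sequences before the transcription starts of members called with cotreatment are shown, because these genes are grouped as HIF targets and HIF binds a core of 5 bases, ACGTG or GCGTG. The windows are the 250 bases upstream of the start furthest upstream, from RefSeq on GRCm38.p6, each read 5′ to 3′ on the strand of its gene. Capitals mark either core on either strand, and a palindrome that matches on both strands was counted as 2 cores. Of the 8 members called with cotreatment, 7 had a window:
Hk2 (chr6:82774455-82774704, minus strand): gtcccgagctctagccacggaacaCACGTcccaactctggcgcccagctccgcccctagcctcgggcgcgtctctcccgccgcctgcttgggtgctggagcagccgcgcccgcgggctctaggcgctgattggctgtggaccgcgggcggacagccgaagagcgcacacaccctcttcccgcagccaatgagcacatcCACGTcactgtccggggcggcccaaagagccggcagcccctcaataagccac
Aldoc (chr11:78322823-78323072, plus strand): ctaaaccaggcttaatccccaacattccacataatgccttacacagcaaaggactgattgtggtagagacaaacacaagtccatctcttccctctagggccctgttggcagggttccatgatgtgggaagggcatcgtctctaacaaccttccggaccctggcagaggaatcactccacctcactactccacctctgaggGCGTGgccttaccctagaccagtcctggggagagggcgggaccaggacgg
Pgk1 (chrX:106186850-106187099, plus strand): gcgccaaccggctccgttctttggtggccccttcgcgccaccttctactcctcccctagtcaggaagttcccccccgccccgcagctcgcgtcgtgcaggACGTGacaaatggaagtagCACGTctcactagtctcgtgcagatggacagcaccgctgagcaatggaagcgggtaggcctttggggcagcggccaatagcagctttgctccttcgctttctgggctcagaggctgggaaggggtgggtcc
Slc16a3 (chr11:120948817-120949066, plus strand): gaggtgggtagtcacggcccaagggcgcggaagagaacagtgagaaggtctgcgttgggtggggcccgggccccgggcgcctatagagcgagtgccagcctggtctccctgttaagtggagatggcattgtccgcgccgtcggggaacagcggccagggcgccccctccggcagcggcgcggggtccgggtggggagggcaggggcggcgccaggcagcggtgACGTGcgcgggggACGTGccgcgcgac
P4ha1 (chr10:59323046-59323295, plus strand): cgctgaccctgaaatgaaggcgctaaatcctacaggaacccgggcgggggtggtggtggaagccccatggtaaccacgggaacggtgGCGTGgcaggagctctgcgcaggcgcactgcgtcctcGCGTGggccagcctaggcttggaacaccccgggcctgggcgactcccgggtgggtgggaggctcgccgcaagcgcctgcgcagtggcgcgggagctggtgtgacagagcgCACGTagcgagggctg
Ak4 (chr4:101419039-101419288, plus strand): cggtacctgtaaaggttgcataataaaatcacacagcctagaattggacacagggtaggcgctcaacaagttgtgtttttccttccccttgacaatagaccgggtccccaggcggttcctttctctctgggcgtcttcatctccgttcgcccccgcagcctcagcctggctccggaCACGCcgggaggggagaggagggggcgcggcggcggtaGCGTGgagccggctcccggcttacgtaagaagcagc
Ddit4 (chr10:59951771-59952020, minus strand): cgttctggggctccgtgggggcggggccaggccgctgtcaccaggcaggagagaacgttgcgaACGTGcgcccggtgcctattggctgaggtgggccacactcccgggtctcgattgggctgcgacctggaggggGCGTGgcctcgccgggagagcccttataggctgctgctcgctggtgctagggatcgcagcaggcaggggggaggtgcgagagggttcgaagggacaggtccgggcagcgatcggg

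Hk2, Pgk1, Slc16a3, Ak4 and Ddit4 each held 2 cores in these 250 bases, Aldoc held 1 and P4ha1 held 3. Ddit4, the gene that rose, and P4ha1, which fell, thus both had cores. Among the 36 members with a window, 27 (75%) held at least 1 core and 18 (50%) at least 2, beside 38.6% and 16.8% of all 27025 genes with a window and 54.5% and 26.5% of the 11443 tested genes with one. The share with at least 1 core was 73.7% of 19 glycolysis genes and 75% of 16 other targets. The largest number, 5, was found before Ldha and Bnip3, and no core was found before Vegfa, Hk1, Gpi1, Aldoa, Tpi1, Pkm, Car12, Hilpda and Mxi1. Epas1, Slc2a3, Bnip3l and Ndrg1 had no window. A match of 5 letters is a description of the sequence, not evidence of binding.

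The cotreatment and cisplatin groups were compared to ask what KW6002 added to cisplatin. Ddit4 was the 1 member called, and it was higher with cotreatment. This was 1 of 40 members raised and 0 lowered, beside 2.29% of all genes raised and 1.71% lowered. The groups overlapped for Ddit4, since cisplatin replicate 5 at 120 CPM exceeded cotreatment replicate 4 at 88 CPM. The log2 fold change was 0.48 ± 0.12 (edgeR adjusted P = 0.0246), and the call was lost when cisplatin replicate 3 or 4 or cotreatment replicate 1, 2 or 3 was left out. With later codes only the log2 fold change of Ddit4 was 0.21 and with earlier codes only it was 0.74 (edgeR adjusted P = 0.677 and 0.00245). The call was also lost with separate code terms (0.47, edgeR adjusted P = 0.051) and with only the cisplatin and cotreatment tumors fitted (0.48, edgeR adjusted P = 0.11). The glycolysis genes had a median log2 fold change of -0.19 in this comparison with 0 called, and 1 of them had an unadjusted P under 0.05 (edgeR). Without cisplatin replicate 5 that median was 0.01, and the median over the other HIF targets moved from -0.23 to 0.15.

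The cotreatment and KW6002 groups were compared to ask what cisplatin added to KW6002. Aldoc, P4ha1 and Ak4 fell, and Ddit4 and Kdm3a rose. This was 3 of 40 lowered and 2 of 40 raised, beside 10.7% of all genes lowered and 12.6% raised. The log2 fold changes were -0.97 for Aldoc, -0.67 for P4ha1, -0.47 for Ak4, 0.80 for Ddit4 and 0.40 for Kdm3a (edgeR adjusted P = 0.000548, 0.0101, 0.0127, 6.77e-05 and 0.0199). None of the 5 genes overlapped between the groups, and neither did Pgk1 and Slc2a1, which were lower and not called. Without overlap, 5 of 40 members were lower and 2 of 40 higher, beside 12.7% and 12.2% of all tested genes. With later codes only, Aldoc was the 1 member called (-1.07, edgeR adjusted P = 0.0186), beside 9.6% of all genes. P4ha1, Ak4, Ddit4 and Kdm3a had log2 fold changes of -0.42, -0.23, 0.64 and 0.45 there and lost their calls (edgeR adjusted P = 0.331, 0.49, 0.0703 and 0.262). With earlier codes only 20 members were called, these 5 among them, beside 19.4% of all genes. Kdm3a was also lost with separate code terms (0.34, edgeR adjusted P = 0.141).

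Whether cisplatin acted differently with and without KW6002 was tested by the interaction of both drugs. No member was called, beside 0.066% of all genes, and DESeq2 also called 0 members. Among the members Ddit4 alone had an unadjusted P under 0.05, with an interaction of 0.52 ± 0.18 on the log2 scale (edgeR adjusted P = 0.221). The cisplatin and cotreatment comparisons share the vehicle tumors, so a call in one and not in the other does not show that the effects differ.

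To set glycolysis beside the other HIF targets, each tumor was given 2 scores, the mean over the genes of a list of log2 CPM minus the vehicle mean. The scores are descriptions and were not tested. For the 20 glycolysis genes the mean score was -0.04 ± 0.118 with KW6002, -0.19 ± 0.461 with cisplatin and -0.35 ± 0.124 with cotreatment (SD, n = 5). For the 18 other HIF targets it was -0.08 ± 0.165, -0.07 ± 0.615 and -0.17 ± 0.238. With later codes only, the glycolysis score against vehicle was 0.03 with cisplatin and -0.20 with cotreatment, and the other-target score was 0.21 and 0.07. Leaving out 1 tumor at a time gave an other-target score of -0.32 to 0.04 with cisplatin.

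In cisplatin replicates 1 to 5 the glycolysis score was -0.37, -0.61, -0.51, 0.00 and 0.52 and the other-target score -0.42, -0.50, -0.53, 0.19 and 0.89. In cotreatment replicates 1 to 5 the glycolysis score was -0.35, -0.50, -0.42, -0.26 and -0.19 and the other-target score -0.21, -0.38, -0.37, -0.10 and 0.20. The vehicle tumors stayed between -0.10 and 0.09 on both scores, so every cotreated tumor was below every vehicle tumor on the glycolysis score but not on the other. KW6002 replicate 5, at -0.21, lay below cotreatment replicate 5 on the glycolysis score, so these groups overlapped. The glycolysis score lay below the other-target score in 5 of 5 cotreated tumors, by 0.05 to 0.39, and the difference averaged -0.17 ± 0.13. Taken by medians over the genes instead of means, it was -0.37 for cotreatment and -0.29 for cisplatin. In vehicle tumors the difference by means ran from -0.11 to 0.09 (SD 0.0713), so cotreatment replicate 3, at -0.05, lay inside the vehicle range. In cisplatin tumors the difference averaged -0.12 ± 0.172 and had both signs, and it was largest in replicate 5, where both scores were high.

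**Figure D4:**
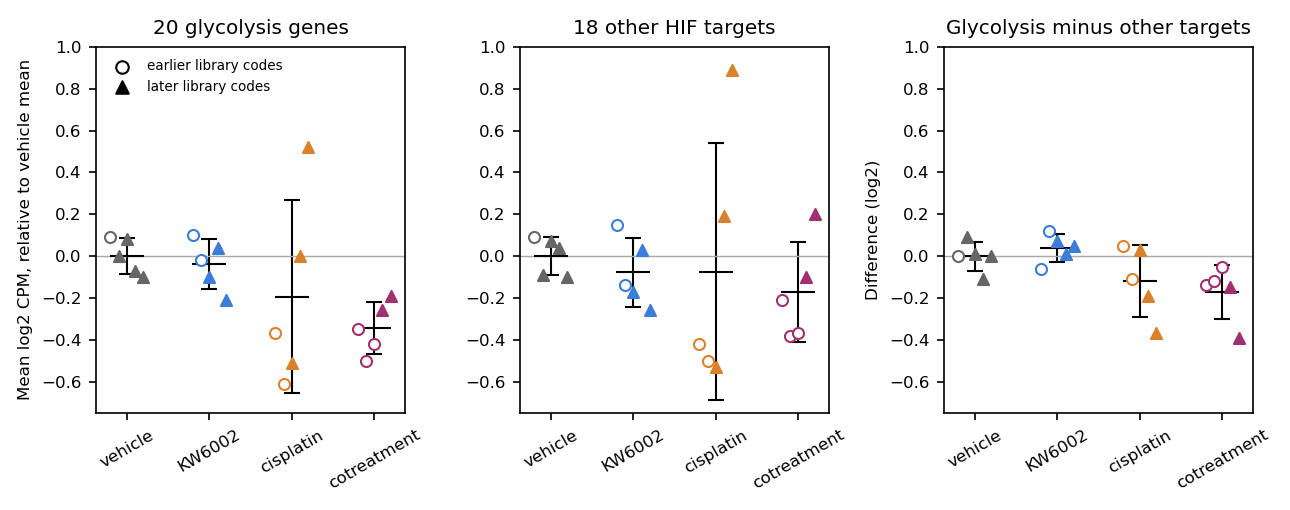
Score of the glycolysis genes, score of the other HIF targets and their difference in each tumor, in log2 units relative to the vehicle mean; open circles are earlier library codes, triangles later ones, and bars show the mean ± SD of 5 tumors. The cisplatin tumors span from -0.61 to 0.52 on the glycolysis score, while all 5 cotreated tumors lie between -0.50 and -0.19.

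The spread of these genes between tumors was widest in the cisplatin group. The median SD of log2 CPM over the 40 members was 0.142 in vehicle, 0.16 in KW6002, 0.485 in cisplatin and 0.231 in cotreatment tumors, and over all tested genes it was 0.156, 0.148, 0.2 and 0.152. It reached 0.471 for the glycolysis genes and 0.69 for the other HIF targets with cisplatin. The members' median in the cisplatin group was 0.552 without replicate 4, 0.291 without replicate 5 and 0.156 without both. Over all tested genes it was 0.179, 0.198 and 0.142 in the same order. Leaving out a tumor that holds the highest values lowers an SD by construction. Cisplatin replicate 5 had the highest level of its group for 36 of the 40 members, and cotreatment replicate 5 had the highest of its group for 25.

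**Figure D5:**
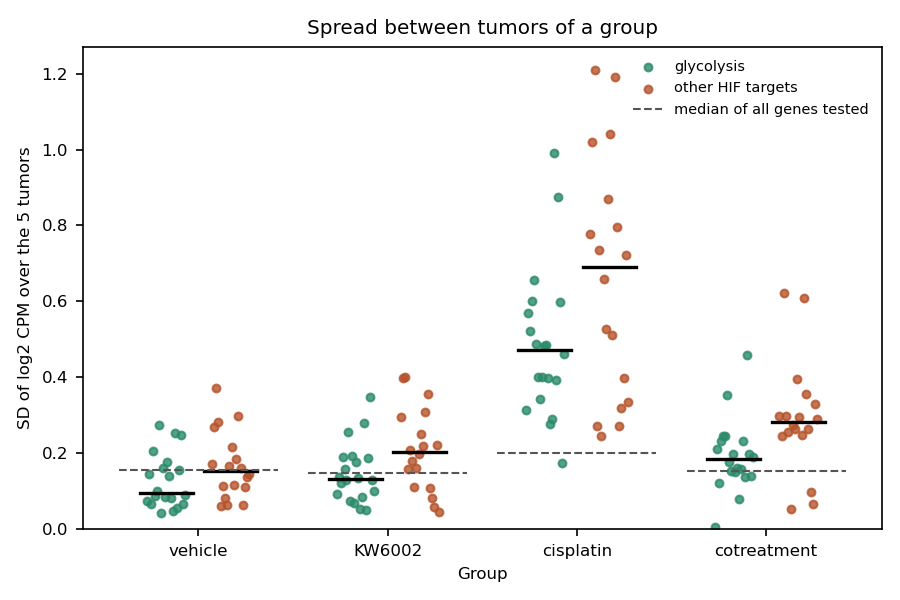
SD of log2 CPM over the 5 tumors of each group, 1 point per gene, with the median of the members as a bar and the median of all tested genes as a dashed line. The members' median is 0.485 with cisplatin and 0.142 with vehicle.

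The members were also compared between libraries with later and earlier codes. Among tumors given cisplatin, 11 members were higher in libraries with later codes and 0 were lower, which is 27.5% of members beside 4.65% of all genes raised and 2.64% lowered. They were the enzymes Pfkl, Aldoa, Tpi1, Pgk1 and Eno1, the lactate exporter Slc16a3, and the other targets Car9, Egln1, P4ha2, Hilpda and Higd1a. Car9 had a log2 difference of 1.46 (edgeR adjusted P = 0.0159) and Slc16a3 one of 1.06 (edgeR adjusted P = 0.0092). Cisplatin replicates 3, 4 and 5 have later codes, and replicate 3 had scores like those of replicates 1 and 2. Without replicate 4 the count was 5 members (3.16% of all genes called) and without replicate 5 it was 7 (4.76%). Without both, Slc16a3 was the 1 member called (log2 difference 0.63, edgeR adjusted P = 0.0371), beside 0.423% of all genes. In that fit 15 of 40 members had an unadjusted P under 0.05 (edgeR), beside 3199 of 17035 genes. Replicates 4 and 5 had the highest scores of the cisplatin tumors, so leaving them out shrinks the code difference by construction, and these counts are descriptions. Among tumors without cisplatin no member was called and 0% of all genes were, with 0 members and 772 genes at an unadjusted P under 0.05 (edgeR; this contrast was not run in DESeq2).

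Within the later codes alone, with 4 vehicle and 2 cotreated tumors, Aldoc stayed lowered by cotreatment (log2 fold change -0.90, edgeR adjusted P = 0.0265), and it was the 1 member called, beside 12.8% of all genes. Ddit4 had a log2 fold change of 0.61 there, P4ha1 one of -0.56 and Ak4 one of -0.27 (edgeR adjusted P = 0.0541, 0.153 and 0.349). The earlier codes held 1 vehicle tumor. With the code run as a term in the fit, Aldoc, P4ha1, Ak4 and Ddit4 were called, beside 22.9% of all genes, and with separate code terms for tumors with and without cisplatin 17 members were, beside 22.8%. Hk2, Pgk1, Slc16a3 and Slc2a3 lost their calls with the code run as a term (-0.56, -0.38, -0.72 and -0.27). Their edgeR adjusted P was 0.0526, 0.0712, 0.0689 and 0.102. Within the later codes these genes had -0.52, -0.23, -0.39 and -0.23 (edgeR adjusted P = 0.29, 0.567, 0.462 and 0.305).

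Markers of other cells moved with the treatments and codes. The summed level of 7 red blood cell genes was 26 to 117 CPM with vehicle, 25.8 to 50.7 CPM with KW6002, 0.0908 to 0.276 CPM with cisplatin and 0.0979 to 0.248 CPM with cotreatment, and 5 of 5 tested genes of the list fell with cisplatin and with cotreatment. Of 8 endothelial markers 8 fell with cisplatin and 7 with cotreatment, and of 6 markers of dividing cells 4 fell with cotreatment. Among tumors given cisplatin, 5 of 8 macrophage, 4 of 6 neutrophil and 3 of 7 fibroblast markers were higher with later codes. The summed neutrophil markers were 15.5, 16.1, 27.7, 44 and 70.4 CPM in cisplatin replicates 1 to 5. The 7 markers of T and natural killer cells summed to 3.72, 3.61, 5.51, 11.5 and 10.4 CPM in the same tumors. The 6 genes of the lung epithelium and carcinoma list summed to 3640, 3304, 3728, 5253 and 5085 CPM there. That list includes the mesenchymal gene Vim, at 2825 to 4659 CPM over all tumors, so most of each sum was Vim. The summed skeletal muscle markers were 178, 3.68, 324, 13.9 and 262 CPM in cisplatin replicates 1 to 5. They reached 1443 CPM in cotreatment replicate 4, which also had the highest Aldoa of its group, at 885 CPM. The part of these cells in the member genes was not tested.

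Other genes of the pathways were counted in the same fits, to be read against 6.01% of all genes raised and 4.57% lowered with cisplatin and 13.1% and 10.4% with cotreatment. Of 9 HIF regulators beyond the members, 2 rose with cisplatin, 3 rose with cotreatment and none fell in either comparison. Hif3a, whose product can restrain HIF, went from 0.206 ± 0.164 CPM in vehicle tumors to 2.11 ± 1.3 CPM with cisplatin and 9.13 ± 5.5 CPM with cotreatment (edgeR log2 fold change 3.36 and 5.47, adjusted P = 0.00142 and 3.8e-06). Arnt2, a HIF beta subunit paralog, rose in both, and Cited2, which competes with HIF for its coactivator, rose with cotreatment (log2 fold change 0.34, edgeR adjusted P = 0.0049).

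Of 24 tested genes for other isoforms and pyruvate handling, 2 rose and 1 fell with cisplatin, and 4 rose and 2 fell with cotreatment. Pdk4, a pyruvate dehydrogenase kinase of fasting metabolism, Ldhb, the heart-type lactate dehydrogenase, and Pfkfb2 rose with cotreatment by 3.12, 0.62 and 0.40 on the log2 scale (edgeR adjusted P = 0.000317, 0.000319 and 0.000532). Pdk4 varied widely, at 1.23 ± 0.399 CPM with vehicle and 10.7 ± 8.57 CPM with cotreatment. Slc16a1, a lactate transporter, and Pdk3 fell by 0.49 and 0.36 (edgeR adjusted P = 6.72e-05 and 0.000557).

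Of 21 further HIF targets, 2 rose and 2 fell with cisplatin, and 3 rose and 4 fell with cotreatment. Loxl2, a collagen crosslinking enzyme, and Gbe1, the glycogen branching enzyme, rose with cotreatment by 0.75 and 0.78 (edgeR adjusted P = 0.000212 and 0.0032), and Ppp1r3c, a glycogen targeting subunit, by 2.59 (edgeR adjusted P = 0.021). Ppp1r3c was low and variable, at 0.51 ± 0.419 CPM with vehicle and 3.04 ± 3.97 CPM with cotreatment. Igfbp3, which binds insulin-like growth factors, Plod2, a collagen lysyl hydroxylase, and the transferrin receptor Tfrc fell by 0.97, 0.36 and 0.67 (edgeR adjusted P = 0.00265, 0.00676 and 0.00734). KW6002 alone gave 0 calls in these 3 lists by edgeR. Among tumors given cisplatin, 7 of these 21 targets were higher with later codes, Ppp1r3c among them (log2 difference 1.93, edgeR adjusted P = 0.0465). So were 4 of the 24 isoform and pyruvate genes and 0 of the 9 regulators. No gene of the 3 lists was lower with later codes, beside 4.65% of all genes raised and 2.64% lowered.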

How the data were processed

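RNA of 20 tumors was sequenced as single-end, stranded poly(A) libraries. The deposited values are raw counts per Ensembl gene: the authors aligned reads to mm10 with STAR and counted uniquely aligned reads with HTSeq 0.6.1p1, after bcl2fastq 2.17.1.14; the strand option is not given in the sources used here. The deposited counts are not normalized.

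Counts of all 20 tumors were fitted with edgeR 4.0.16 (R 4.3.3, limma 3.58.1) after filterByExpr and TMM scaling, by the robust quasi-likelihood test with 4 group means. P values were adjusted by Benjamini-Hochberg over 16665 genes, and a gene was called at adjusted P under 0.05 with a log2 fold change of at least 0.32 in size. The prior count was 2. Each library is 1 tumor, so P values measure the spread between tumors; reads carry no molecular identifiers. In counts simulated for cotreatment against vehicle, with the same spread for a gene in all groups, 95% of 200 genes changed 2-fold were recovered. Every member called in that comparison changed less than 2-fold, so this share does not give the recovery of such changes. The vehicle tumors carry 2 label forms and were taken as 1 group.

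The members and lists were chosen with earlier results of these data known. By rule, all members could be named, values of every tumor were given for Hif1a, Epas1, Vegfa, Slc2a1, Car9, Ldha, Pgk1 and Bnip3 and, per comparison, for the 3 raised and 3 lowered called members of smallest adjusted P; for the other pathway lists the same number was named per comparison with vehicle. Aldoa has a second Ensembl gene with 21 to 63 counts per tumor, which was not used. Alternatives were other scalings, filters, fold limits, DESeq2 1.42.0, a replicate block, the code runs, the groups fitted and each tumor left out. Same-numbered tumors did not deviate together (30 pairs, r from -0.392 to 0.391).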

Additional observations from a re-analysis of the deposited data

Results flagged for a closer look

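In groups of 5 tumors, 1 value was taken as standing apart when its gap to the nearest tumor, divided by the range of the group, exceeded 0.71 (Dixon's ratio). Of 172 such tests over the members and scores 10 passed, and chance alone gives about 1 in 20. Cisplatin replicate 5 was high for Ddit4 (ratio 0.848, 120 CPM), Mxi1 (0.764, 183 CPM), Hk2 (0.742, 343 CPM), Ak4 (0.719, 62.9 CPM) and Kdm3a (0.714, 391 CPM). Vehicle replicate 5 was low for Ddit4 (ratio 0.851, 58.5 CPM) and Pgam1 (0.77, 15.8 CPM). KW6002 replicate 5 was low for Pgk1 (ratio 0.743, 36.3 CPM), cotreatment replicate 4 was low for Ddit4 (0.725, 88 CPM), and cotreatment replicate 3 was high for Gapdh (0.715, 42.3 CPM).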

How the results depend on the processing

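The number of members called varied with the settings, as did the share of all genes called, given as a percentage beside it, and the causes were not tested. For cisplatin against vehicle (1 member, 10.6%), it was 3 (16.5%) without a fold limit, 0 (2.68%) in a test against that limit, and 2 with the code run as a term (11.1%), with separate code terms (6.62%), with later codes only (15.9%; Hif1a and Gapdh, without Aldoc), with a replicate block (9.66%) and with DESeq2 (11.1%). For cotreatment against vehicle (8, 23.5%), it was 4 (10.5%) without a filter on low counts, 2 (9.95%) in the test against the fold limit, 4 (22.9%) with the code run as a term, 17 (22.8%) with separate code terms, 1 (12.8%) with later codes only and 13 (24.4%) with only those groups fitted. For cotreatment against cisplatin (1, 4%), it was 0 without a filter (1.38%), in the test against the limit (0.168%), with separate code terms (3.28%), with later codes only (0.00581%) and with only those groups fitted (1.35%). For cotreatment against KW6002 (5, 23.3%), it was 2 (10.6%), 18 (25.2%), 1 (9.6%) and 11 (24.1%) in the test against the limit, with separate code terms, with later codes only and with only those groups fitted, and 20 (19.4%) with earlier codes only. For later against earlier codes in tumors given cisplatin (11), it was 5 to 7 without cisplatin replicate 4 or 5 and 1 without both. The separate terms, the earlier codes and these exclusions were chosen after seeing the data.

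Leaving out each tumor in turn gave 1 to 8 members for cisplatin against vehicle, 4 to 11 for cotreatment against vehicle (4 without vehicle replicate 1 or cotreatment replicate 2 or 3, and 5 without vehicle replicate 2, 3 or 5, KW6002 replicate 4 or cotreatment replicate 1), 0 to 1 for cotreatment against cisplatin and 5 to 10 for cotreatment against KW6002 (8 without cisplatin replicate 2 and 10 without cisplatin replicate 5). In the fit with the 4 group means alone, these comparisons called 10.6%, 23.5%, 4% and 23.3% of all genes in the same order. Without cisplatin replicate 5, cotreatment against vehicle called 23.5%. The member counts only show how the calls moved. A replicate block gave 8 members for cotreatment against vehicle, beside 2071 genes raised and 1698 lowered of 16665. It gave 7 against KW6002, where the fit with group means alone called 23.3% of all genes. The tumors share only a number. Of 516 alternative values for the 15 called gene results, 423 kept the call, 93 lost it and 0 changed direction.

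The glycolysis score of cotreatment was -0.20 against vehicle and -0.14 against KW6002 with later codes, and -0.46 against KW6002 with earlier codes. The other-target score was 0.07, 0.18 and -0.33 in the same order. The difference of the scores, taken by medians, was -0.29 for cisplatin and -0.37 for cotreatment against vehicle and -0.42 against KW6002, and -0.32 against KW6002 with later codes. Without 1 tumor, the cisplatin scores against vehicle ranged from -0.37 to -0.09 for glycolysis and from -0.32 to 0.04 for other targets.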
